A study of Arabidopsis thaliana with 23 samples.

Results

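Pseudogenes and transposable element (TE) genes are mostly counted as silent sequence, and those on the chromosome arms of Arabidopsis thaliana lie between active genes, away from the heterochromatin around the centromeres. The annotation lists 4843 such loci on the 5 nuclear chromosomes, among 37899 annotated loci in all. Of these, 1416 lie outside windows around the centromeres, namely bases 12500000 to 17000000 of chromosome 1, 1500000 to 6500000 of chromosome 2, 11000000 to 16000000 of chromosome 3, 1500000 to 6000000 of chromosome 4 and 9500000 to 14500000 of chromosome 5, with loci that cross a window's edge counted as inside. The 530 loci described here are those on the arms with the summit of a ChIP-Seq peak inside in at least 1 of 15 peak lists, whichever the mark or condition. They are hereafter called the arm loci. The annotation used puts TE genes and pseudogenes under the same feature type, so both kinds are treated together, with 240 arm loci given as pseudogene and 290 as transcribed pseudogene.

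Whole seedlings 12 days old were studied in 4 conditions: axe1-5 +MeJA, axe1-5, WT +MeJA and WT. The mutant axe1-5 carries a defective HDA6, a histone deacetylase, and WT is the DR5 reporter line in the Col-0 background that serves as its wild type. Seedlings stood on 50 µM methyl jasmonate (MeJA), the volatile form of the stress hormone jasmonate, or on mock plates for 3 h. Chromatin was precipitated with antibodies against tetra-acetylated histone H4 (H4ac, 8 libraries, 2 replicates per condition) or against histone H3 trimethylated at lysine 27 (H3K27me3, 7 libraries, with only replicate 2 used for WT +MeJA). The libraries come from whole seedlings, so a mark in few cells and a weak mark in all cells cannot be told apart.

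H4ac is found at the starts of active genes and is removed by histone deacetylases. HDA6 is known for keeping transposons, repeats and some genes silent, together with the DNA methyltransferase MET1. H3K27me3 is laid down by Polycomb repressive complex 2 and covers genes that are shut off in a tissue, whereas most transposons are silenced by DNA methylation and methylation of another lysine of histone H3. Long terminal repeat (LTR) retrotransposons carry direct repeats at both ends, which are identical at the time of insertion. Transcription of such an element starts in the repeat at its 5′ end, and reverse transcription is primed by a tRNA that pairs with the bases just inside that repeat.

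Direct repeats at both ends were found in 46 of the 530 arm loci, against 56 of the 886 loci on the arms that had no summit. A pair was counted when the copies were at least 100 bp long and at least 90% identical, lay within 500 bp of the ends of a locus of at least 2000 bp, and were at least 1000 bp apart. The repeats had a median length of 244 bp (112 to 748 bp), both copies were identical in 14 loci, and the median length of the loci was 4370 bp. The 11 letters TGGTATCAGAG, which pair with the 3′ end (CCA included) of 8 of the 12 methionine tRNA genes too short to hold an intron, lay within 50 bases of the inner end of the 5′ repeat in 34 of the 46 loci (73.9%). The same letters were searched on both strands from 500 bp before to 500 bp after each locus. They occurred at 78.3% of the arm loci with terminal repeats, 4.55% of the other arm loci and 0.543% of protein-coding loci. At the 886 loci on the arms without a summit the share was 7.9%. These were not split, and include the 56 with terminal repeats. The sequences below show this junction, with 100 bases of the 5′ repeat followed by 40 bases of the element, on the strand of the locus and from TAIR10.1. The capitals mark the 11 letters. The first 4 loci had H4ac in the axe1-5 libraries and in no WT library, the next 2 had H4ac in all 8 libraries, and the last 2 had no H4ac summit.
AT3G60170, chr3:22232317-22232456, plus strand: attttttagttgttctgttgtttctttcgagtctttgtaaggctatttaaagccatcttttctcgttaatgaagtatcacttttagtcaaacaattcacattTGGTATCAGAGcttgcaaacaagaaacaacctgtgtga
AT3G45775, chr3:16813881-16814020, minus strand: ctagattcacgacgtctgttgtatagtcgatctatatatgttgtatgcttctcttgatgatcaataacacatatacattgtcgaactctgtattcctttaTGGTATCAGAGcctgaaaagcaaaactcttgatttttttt
AT3G50625, chr3:18791405-18791544, plus strand: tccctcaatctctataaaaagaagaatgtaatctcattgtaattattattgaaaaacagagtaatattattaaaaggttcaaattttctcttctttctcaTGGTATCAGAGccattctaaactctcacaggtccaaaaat
AT1G62460, chr1:23118521-23118660, plus strand: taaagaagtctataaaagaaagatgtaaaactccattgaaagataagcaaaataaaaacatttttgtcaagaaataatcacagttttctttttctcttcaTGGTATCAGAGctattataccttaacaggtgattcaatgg
AT4G10690, chr4:6588999-6589138, plus strand: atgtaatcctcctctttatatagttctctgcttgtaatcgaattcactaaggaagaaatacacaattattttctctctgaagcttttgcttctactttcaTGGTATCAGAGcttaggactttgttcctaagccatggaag
AT3G60965, chr3:22551435-22551574, minus strand: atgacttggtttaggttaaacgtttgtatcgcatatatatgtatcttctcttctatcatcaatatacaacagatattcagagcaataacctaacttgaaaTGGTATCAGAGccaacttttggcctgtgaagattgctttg
AT1G11265, chr1:3781105-3781244, plus strand: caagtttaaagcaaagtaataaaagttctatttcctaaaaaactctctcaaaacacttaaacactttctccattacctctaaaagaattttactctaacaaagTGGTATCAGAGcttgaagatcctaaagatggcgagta
AT3G61330, chr3:22700042-22700181, minus strand: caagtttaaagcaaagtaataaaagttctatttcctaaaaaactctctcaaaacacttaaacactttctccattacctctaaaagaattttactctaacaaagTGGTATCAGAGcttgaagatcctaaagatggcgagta

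Values are the fold enrichments that the authors' peak caller gave over input. Each locus was given the highest value of any peak whose summit it holds. Where a list had no such peak the value was set to 0, which says nothing on enrichment below the threshold of the peak caller. The H4ac libraries kept 3235473 to 14717755 tags after duplicates had been removed, with 10569841 and 14717755 in axe1-5 +MeJA, 7025483 and 7222121 in axe1-5, 8700467 and 9840934 in WT +MeJA, and 5927987 and 3235473 in WT. The H3K27me3 libraries kept 577986 to 8879066 tags, the fewest in WT +MeJA. The fragment length modelled by the peak caller was 209 bp in replicate 2 of axe1-5 +MeJA and 282 bp in replicate 1 of axe1-5, but 52 to 61 bp in the 5 other H3K27me3 libraries, close to the tag size of 51 bp. HDA6 itself had an H4ac summit in all 8 libraries, and peak lists cannot test whether it is defective in the libraries labelled axe1-5.

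To find how many of the arm loci carried each mark, summits were counted over all libraries. An H4ac summit was found at 308 arm loci and an H3K27me3 summit at 304, and 82 of them had both at least once. Of those with H4ac, 71 (23.1%) had it in all 8 libraries, compared with 43.7% of protein-coding loci with H4ac, and 45 (14.6%) had it in a single library, compared with 7.38%. For H3K27me3, 9 (2.96%) had the mark in all 7 libraries and 91 (29.9%) in a single one, against 11.4% and 13.3% of protein-coding loci. Many arm loci were thus listed in some libraries and not in others, for both marks. Loci with H3K27me3 only were shorter (median 984 bp, 222 loci) than those with H4ac only (1927 bp, 226 loci), and a longer locus can take in more summits. The H4ac summit lay near the 5′ end, at a median of 314 bp inside the locus, and within 500 bp of that end in 206 of the 308 loci. These loci had a median length of 1782 bp, and the share within 500 bp was not counted over all loci. The nearest start of a protein-coding gene was a median of 2330 bp from the H4ac summits. In 44 arm loci a summit also lay inside another annotated locus, and for 103 fewer than 90% of 50-base windows occurred once in the genome, so that reads there may come from a copy elsewhere.

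To compare the conditions, the arm loci were taken as a share of all loci with a summit in the same library, which allows for the different lengths of the lists. For H4ac, the share was 1.58% and 1.62% in axe1-5 +MeJA (242 and 220 loci), 1.43% and 1.48% in axe1-5 (224 and 197 loci), 0.973% and 0.992% in WT +MeJA (144 and 150 loci), and 0.826% in both WT libraries (102 and 108 loci). All 4 axe1-5 libraries were above all 4 WT libraries. The mean was 1.53 ± 0.0881% in axe1-5 and 0.904 ± 0.091% in WT (SD, n = 4 each), a difference of 0.621 percentage points. The two-sided exact permutation test gave p = 0.0286, which is the smallest p that 4 libraries against 4 allow, and 0.0857 after Benjamini-Hochberg adjustment over 6 share tests. When every list was shortened to equal length by score, the difference was 0.711 percentage points (exact permutation p = 0.0286), and without the untreated WT libraries, which had the fewest tags, it was 0.542 percentage points (exact permutation p = 0.0667, the smallest that design allows).

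MeJA gave a smaller difference in the H4ac share. The mean was 1.29 ± 0.356% in the MeJA libraries and 1.14 ± 0.362% in the mock libraries (SD, n = 4 each; two-sided exact permutation p = 0.514, adjusted 0.617). Within each genotype both MeJA libraries were above both mock libraries. When libraries were permuted within genotype, the same difference of 0.151 percentage points had an exact p of 0.0556, the smallest that this design allows. With equal numbers of peaks the difference was 0.0859 percentage points (exact permutation p = 0.629). Within each genotype the MeJA libraries also kept more tags than the mock libraries, and the part of depth was not tested.

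**Figure D1:**
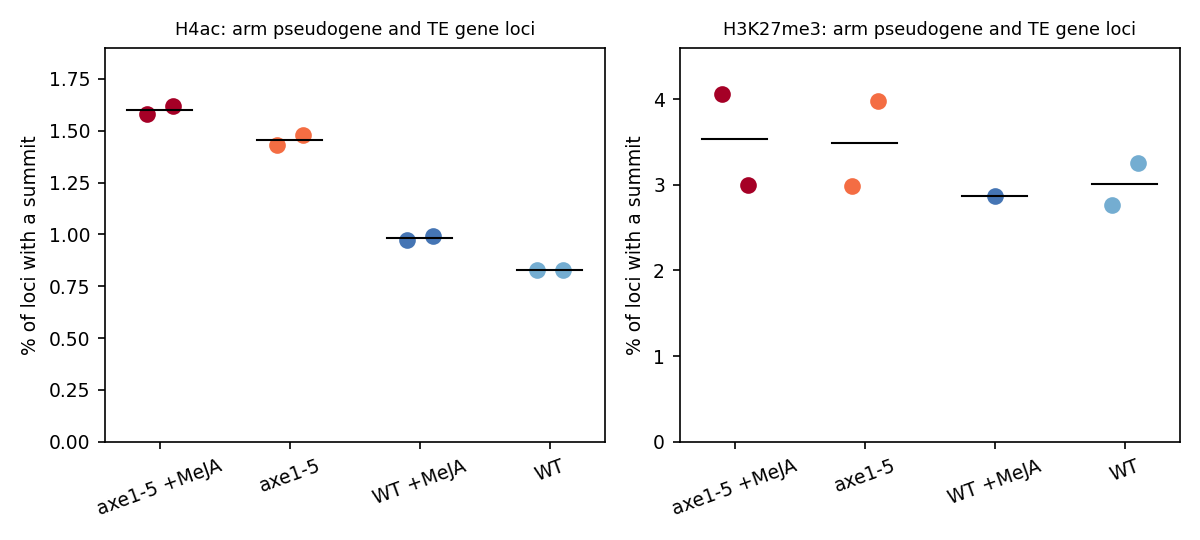
Arm pseudogene and TE gene loci as a percentage of all loci with a summit (y axis) in each library, by condition (x axis), for H4ac on the left and H3K27me3 on the right. Each point is a library and each line the mean of a condition. For H4ac the axe1-5 libraries lie at 1.43 to 1.62% and the WT libraries at 0.826 to 0.992%, and for H3K27me3 the conditions overlap between 2.76 and 4.06%.

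For H3K27me3, the share was 4.06% and 3% in axe1-5 +MeJA (209 and 145 loci), 2.99% and 3.98% in axe1-5 (128 and 135 loci), 2.87% in WT +MeJA (41 loci), and 2.76% and 3.26% in WT (66 and 138 loci). The genotypes overlapped, and replicates of axe1-5 differed by about as much as the conditions. The mean was 3.51 ± 0.589% in axe1-5 (SD, n = 4) and 2.96 ± 0.261% in WT (SD, n = 3), with a two-sided exact permutation p of 0.286 (adjusted 0.571). The difference of 0.544 percentage points was 0.149 with equal numbers of peaks (exact permutation p = 0.343). The MeJA libraries averaged 3.31 ± 0.651% (SD, n = 3) and the mock libraries 3.25 ± 0.526% (SD, n = 4; exact permutation p = 0.8, adjusted 0.8). The marks differed from each other by more than this spread. Arm loci made up 3.27 ± 0.53% of the loci with H3K27me3 (SD, n = 7) and 1.21 ± 0.342% of those with H4ac (SD, n = 8). The exact permutation p was 1.55e-04, the smallest that 7 against 8 libraries allow (adjusted 9.32e-04). The libraries of the marks are matched by condition and replicate number, and 7 of the 8 inputs were shared by the marks. With libraries permuted within condition the exact p was 0.00154, and within replicate number 4.08e-04.

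H4ac was next followed at single loci. A gain was counted where every replicate of a condition listed the locus while the WT library of that number did not, or listed it with at least 2 times the WT fold enrichment, and a loss where the same held the other way round. In axe1-5 +MeJA, 132 of the 308 arm loci with H4ac gained it (42.9%), where 16.1% of all 19351 loci with H4ac did. In axe1-5 without MeJA, 78 gained it (25.3%, against 7.36% of all loci) and 4 lost it (1.3%, against 1.3% of all loci). In WT +MeJA, 29 gained it (9.42%, against 8.81% of all loci). The gains of arm loci thus stood above the share of all loci in both axe1-5 conditions, and near it in WT +MeJA. All 3 comparisons use the same untreated WT libraries. Of the loci gained, 108 in axe1-5 +MeJA, 68 in axe1-5 and 25 in WT +MeJA had no H4ac summit in either untreated WT library. The comparison of axe1-5 +MeJA with WT +MeJA, added later, keeps the treatment equal and does not use those libraries, and gave 92 gained arm loci (29.9%, against 8.07% of all loci). Set against untreated axe1-5, axe1-5 +MeJA gave 25 gained arm loci (8.12%, against 4.82% of all loci). No H4ac summit was listed in either reference library at 83 of the 92 and 20 of the 25. The libraries of axe1-5 +MeJA kept more tags (10569841 and 14717755) than those of WT +MeJA (8700467 and 9840934) and untreated axe1-5 (7025483 and 7222121). The part of depth in these gains was not tested.

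**Figure D2:**
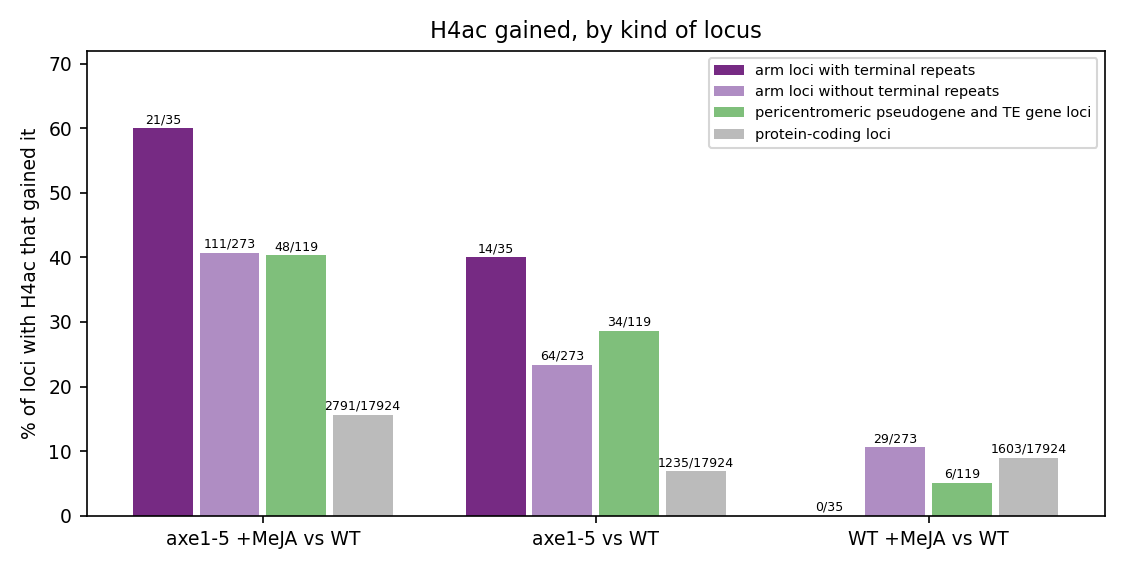
Percentage of the loci with H4ac that gained it (y axis) in each comparison with untreated WT (x axis), for arm loci with and without terminal repeats, for pericentromeric pseudogene and TE gene loci and for protein-coding loci. The numbers above the bars are loci gained of loci with H4ac. In axe1-5, 14 of 35 arm loci with terminal repeats gained H4ac, and 1235 of 17924 protein-coding loci.

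Pseudogene and TE gene loci around the centromeres were counted beside them. There, 48 of 119 loci with H4ac gained it in axe1-5 +MeJA (40.3%), 34 in axe1-5 (28.6%) and 6 in WT +MeJA (5.04%). To ask whether the arms were favoured, the arm loci were taken as a share of all pseudogene and TE gene loci with an H4ac summit. This share was 70.8 ± 0.336% in axe1-5 and 71.7 ± 2.03% in WT (SD, n = 4 each; exact permutation p = 0.429, adjusted 0.617). The libraries had 70.6% and 70.5% in axe1-5 +MeJA, 71.1% in both of axe1-5, 73.5% in both of WT +MeJA, and 69.9% and 70.1% in WT. The share was thus lower in axe1-5 than in WT under MeJA and higher without it, which the pooled means do not show.

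A model across all loci gave the genotype difference at each locus. It was fitted with limma on log2 of the fold enrichment plus 1 in the 8 H4ac libraries, averaged over mock and MeJA. At an adjusted p under 0.05, 74 of the 308 arm loci were higher in axe1-5 (24%, against 7.48% of all loci tested) and 8 were lower (against 3.11% of all loci). These calls rest largely on listing: 60 of the 74 had no summit in any WT library, where all values were set to 0, and 18 of the 60 had none in untreated axe1-5 either. The other 14 had a summit in a WT library (4.55% of the arm loci with H4ac, against 2.11% of all loci). Around the centromeres, 33 of the 119 pseudogene and TE gene loci with H4ac were higher (27.7%) and 0 were lower. With 1 replicate of each condition, 0 arm loci passed in limma, while 66 or 76 were higher at an unadjusted p under 0.05, against 125 with both replicates. The median difference, axe1-5 minus WT, was 0.78 on the log2 scale over the arm loci and 0.09 over all 19351 loci, but a locus with no listed summit in WT enters with the value 0, so that this is not a fold change. Among the 71 arm loci with H4ac in all 8 libraries, where no zeros enter, the median difference was 0.16, with 54 above 0 and 2 that passed the test. The 8227 loci of any kind with H4ac in all 8 libraries had a median of 0.09. Loci listed in one genotype only are left out of both sets by their definition.

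**Figure D3:**
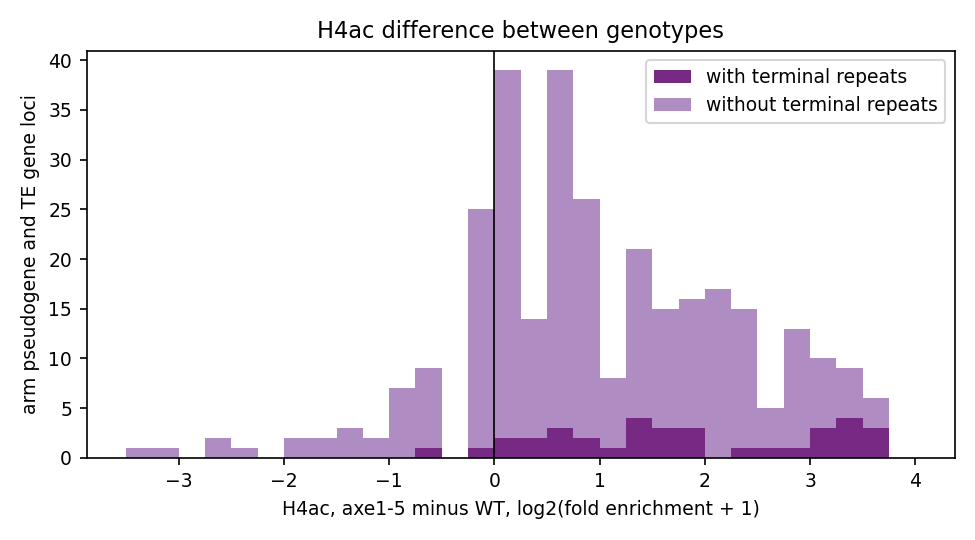
Difference in H4ac between genotypes (axe1-5 minus WT, in log2 of fold enrichment plus 1, x axis) for the 308 arm loci with H4ac (number of loci, y axis), with the 35 that carry terminal repeats in dark. The median is 0.78, and 253 of the 308 loci lie above 0.

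H4ac in all 4 axe1-5 libraries and in no WT library was found at 40 arm loci (13% of those with H4ac, against 2.1% of all loci with H4ac). Pericentromeric pseudogene and TE gene loci had it more often, at 21 of the 119 with H4ac (17.6%), so the pattern is not particular to the arms. The opposite pattern, all 4 WT libraries and no axe1-5 library, was found at 3 arm loci (0.974%, against 0.419% of all loci). Of the 40 loci, 12 carried terminal repeats. AT3G24680 (chromosome 3, 9015500 to 9016963, all of its 50-base windows found once in the genome) had the highest mean in untreated axe1-5 after AT3G28865. Its fold enrichment was 10.95 and 14.78 in axe1-5 +MeJA and 8.66 and 12.87 in axe1-5, against none listed in the 4 WT libraries. AT3G28865, a locus of 9302 bp on the same chromosome, had 9.26 and 12.04 in axe1-5 +MeJA and 9.04 and 12.97 in axe1-5, and AT5G07215 had 12.05 and 15.36 in axe1-5 +MeJA and 8.41 and 11.43 in axe1-5. Neither was listed in a WT library, and the values in both groups of axe1-5 overlapped at AT3G28865.

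Loci with the highest H4ac among those gained in axe1-5 +MeJA often had it in WT as well. AT1G47930 had 16.67 and 19.25 in axe1-5 +MeJA, 9.83 and 14.24 in axe1-5, 10.04 and 10.43 in WT +MeJA, and 5.06 and 5.57 in WT (log2 difference between genotypes 0.89 ± 0.18, SE; limma adjusted p = 0.0314). AT2G04110 had 14.79 in both axe1-5 +MeJA libraries, 11.18 and 10.77 in axe1-5, 10.8 and 11.74 in WT +MeJA, and 6.56 and 7.37 in WT (limma adjusted p = 0.112). At both loci axe1-5 +MeJA was above every other library and untreated WT below. AT3G28315 had 12.75 and 16.06 in axe1-5 +MeJA, 9.67 and 10.33 in axe1-5, 4.59 and 5.55 in WT +MeJA, and 3.64 and none listed in WT, so that all axe1-5 libraries were above all WT libraries (limma adjusted p = 0.0894).

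The loci with terminal repeats were described separately, a group defined after the values of the arm loci were known, so their counts are a description, and the loci named from it were picked after their values were seen unless the rule for named loci also gives them. Of the 46, 35 had H4ac. An axe1-5 library listed 34 of these and a WT library 11. H4ac stood in axe1-5 libraries only at 24 loci, of which 12 had it in all 4 axe1-5 libraries and 5 in both axe1-5 +MeJA libraries alone. The pattern of all 4 axe1-5 libraries and no WT library held at 2.1% of all loci with H4ac. For the counts of 34, 11, 24 and 5 no share over all loci was taken, so they are not a result about these loci. Each axe1-5 library of H4ac kept more tags than either untreated WT library, and the part of depth was not tested. Of the 35 loci, 21 gained H4ac in axe1-5 +MeJA (60%, against 16.1% of all loci with H4ac). In axe1-5 14 gained it (40%, against 7.36% of all loci), and in WT +MeJA 0 did (against 8.81% of all loci). Sequence that repeats elsewhere was common here, with 16 of the 46 loci under 90% unique. Of the 12 loci with H4ac in all 4 axe1-5 libraries and no WT library, 8 were at least 90% unique.

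AT3G45775, whose junction is shown above, is 4440 bp long, unique throughout, and has repeats of 232 bp that are 97.8% identical. Its fold enrichment was 11.14 and 13.14 in axe1-5 +MeJA and 8.21 and 10.73 in axe1-5, with none listed in WT. AT3G60170, with identical repeats of 244 bp, had 11.47 and 15.94 in axe1-5 +MeJA and 6.49 and 10.92 in axe1-5, with none listed in WT. Its summit also lies in the overlapping locus AT3G60164, which runs on the other strand and had further summits in WT libraries, at 7.35 in 1 library of WT +MeJA and 4.86 in 1 of WT. AT3G50625, with identical repeats of 353 bp, had 10.8 and 12.05 in axe1-5 +MeJA, 7.13 and 8.84 in axe1-5 and none listed in WT. In these loci the H4ac summit lay 268, 157 and 230 bp inside the 5′ end, downstream of the repeat in which transcription of such an element is known to start. AT1G62460 reached 11.21 and 14.39 in axe1-5 +MeJA and 7.99 and 12.48 in axe1-5, with none listed in WT, but 16.7% of its windows were unique, so copies elsewhere may add reads. The same holds for AT1G58889 and AT1G59265, neighbours on chromosome 1 whose repeats of 167 bp are identical to each other and of whose windows 1.11% and 1.14% were unique.

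**Figure D4:**
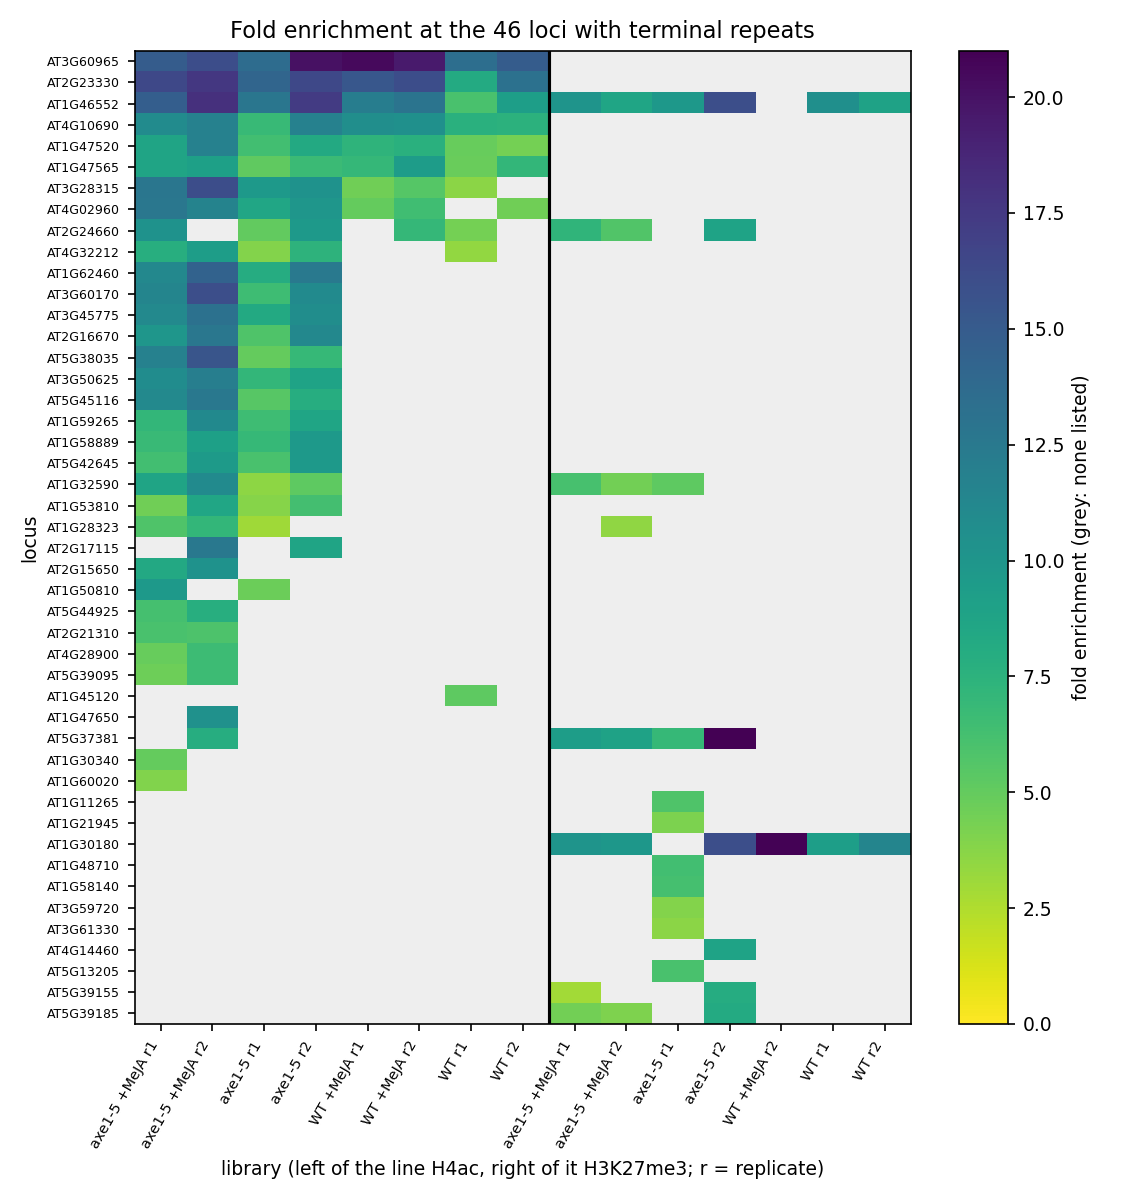
Fold enrichment (colour, grey where no summit was listed) at the 46 loci with terminal repeats (rows) in the 8 H4ac and 7 H3K27me3 libraries (columns). A block of 12 loci has H4ac in all 4 axe1-5 libraries and in no WT library, 6 loci have it in all 8, and 7 loci have H3K27me3 in replicate 1 of axe1-5 alone.

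Other loci with terminal repeats had H4ac in WT too. Summits in all 8 libraries were found at 6 of them. AT2G23330 had 16.47 and 17.58 in axe1-5 +MeJA, 14.15 and 16.47 in axe1-5, 15.33 and 16.06 in WT +MeJA, and 8.13 and 13.14 in WT, and the genotypes overlapped (limma adjusted p = 0.587). AT4G10690 had 10.87 and 11.77 in axe1-5 +MeJA, 6.81 and 11.79 in axe1-5, 10.59 and 10.47 in WT +MeJA, and 7.64 and 7.48 in WT. The same 11 letters thus stood at loci with H4ac in one genotype and at loci with H4ac in both. AT3G60965, with the highest mean H4ac of the 46 loci, had 14.87 and 16.04 in axe1-5 +MeJA, 13.55 and 20.09 in axe1-5, 20.47 and 19.45 in WT +MeJA, and 13.41 and 14.9 in WT, and shares its summit with the protein-coding AT3G60961. The named copia-type retrotransposon RE2 (AT4G02960) lay between these patterns. It had 12.68 and 11.58 in axe1-5 +MeJA, 8.56 and 9.94 in axe1-5, 5 and 6.45 in WT +MeJA, and no listed summit and 4.55 in WT. RE2 gained H4ac in axe1-5 and axe1-5 +MeJA by the rule of 2 times, while limma gave an adjusted p of 0.213.

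**Figure D5:**
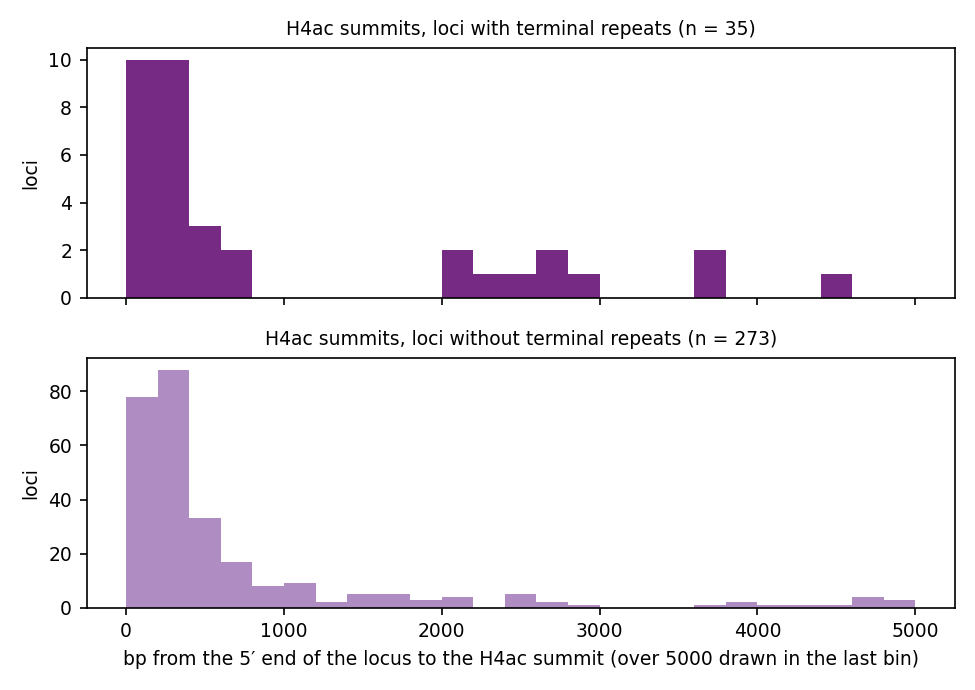
Distance from the 5′ end of the locus to the median H4ac summit (x axis, bp) for the 35 arm loci with terminal repeats and H4ac (top) and the 273 others (bottom), as numbers of loci (y axis). Of the 35, 22 have it within 500 bp of the 5′ end, beside 206 of all 308 arm loci with H4ac.

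A family of 7 loci with similar terminal repeats (440 to 463 bp, and 748 bp at AT1G48710) had no H4ac summit in any library. These are AT1G11265, AT1G21945, AT1G48710, AT1G58140, AT3G59720, AT3G61330 and AT5G13205, whose repeats were 92.7 to 100% identical between loci. The summit of AT1G11265 also lies in the protein-coding AT1G11270. The junctions of AT1G11265 and AT3G61330 shown above are the same letter for letter. All 7 had an H3K27me3 summit in replicate 1 of axe1-5 and in none of the 6 other H3K27me3 libraries, with fold enrichments of 3.68 at AT3G61330 to 6.33 at AT1G48710. The family was sought only among the arm loci, so copies without a summit could not enter it. That all 7 share the pattern follows in part from this choice, since without H4ac they entered only through replicate 1 of axe1-5. That library kept the most tags of its mark, 8879066, and its modelled fragment was the longest, 282 bp. From 0% of windows at AT1G11265 to 24.7% at AT1G21945 were unique, so the 7 summits may rest on reads from fewer loci, and the part of depth and of copies in this pattern was not tested. In contrast, AT1G30180, a unique locus with identical repeats of 156 bp, had H3K27me3 at 10.13 and 9.91 in axe1-5 +MeJA, none listed and 15.93 in axe1-5, 20.85 in WT +MeJA, and 9.19 and 11.47 in WT. It had no H4ac summit.

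Sadhu elements, short non-coding retrotransposons known from Arabidopsis for silencing that differs between copies and strains, were represented by 5 arm loci, and all 5 had H4ac. SADHU5-1 (AT4G01525, chromosome 4, 660810 to 661698) had 13.3 and 14.21 in axe1-5 +MeJA, 4.94 and 9.65 in axe1-5, 4.59 and none listed in WT +MeJA, and none listed in WT (limma adjusted p = 0.0354). The same locus had H3K27me3 at 11.34 and none listed in axe1-5 +MeJA, 11.58 and 21.24 in axe1-5, 16.68 in WT +MeJA, and 11.82 and 16.16 in WT. Both marks were thus listed at SADHU5-1 in untreated axe1-5, while WT without MeJA had H3K27me3 alone. Of its windows, 39.8% were unique. SADHU10-1 (AT3G58865) had 12.8 and 15.43 in axe1-5 +MeJA, 8.51 and 15.21 in axe1-5, 9.09 and 13.49 in WT +MeJA, and 4.65 and 6.13 in WT, and it gained H4ac in axe1-5 +MeJA by the rule. Limma gave it an adjusted p of 0.294, and its summit also lies in the protein-coding AT3G58875. SADHU7-1, Sadhu4-2 and SADHU1-2 had H4ac in all 8 libraries. SADHU7-1 was highest of all arm loci listed in every H4ac library, with a mean of 17.6, but shares its summit with AT3G13440.

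CYTOSLEEPER (AT1G15300), related to the hAT family of DNA transposons, had 8.36 and 9.29 in axe1-5 +MeJA, 4.7 and none listed in axe1-5, 8.11 and 7.01 in WT +MeJA, and none listed and 3.88 in WT. It gained H4ac in axe1-5 +MeJA alone among the 3 comparisons. MUG4 and MUG6, picked for their names and derived from a Mutator transposase, had H4ac in 7 and 8 of the 8 libraries and gained it in none of the comparisons.

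Pseudogenes of known gene families were few by their annotation text. Of 16 F-box pseudogenes, whose parent genes encode adaptors of ubiquitin ligases, 12 had H3K27me3 and 5 had H4ac. Of 9 cytochrome P450 pseudogenes, from a family of oxidases of specialized metabolism, 6 had H3K27me3 and 4 had H4ac, 2 of which gained H4ac in axe1-5 +MeJA. Over all 530 arm loci, 304 had H3K27me3 and 308 had H4ac. Of the arm loci with H4ac, 42.9% gained it in axe1-5 +MeJA. The family counts are small and were not tested. None of the class words stood in the text of 473 loci.

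PSEUDOSRKA (AT4G21370) is the non-functional copy of the receptor kinase of self-incompatibility, which is expressed in the stigma of self-incompatible relatives. Its H4ac fold enrichment was 6.96 and 9.66 in axe1-5 +MeJA and 3.73 and 6.14 in axe1-5, against none listed in the 4 WT libraries. H3K27me3 was present there in both genotypes, with 9.32 and 9.33 in axe1-5 +MeJA, 8.27 and 10.62 in axe1-5, none listed in WT +MeJA, and 10.39 and 14.59 in WT. Both axe1-5 conditions thus listed both marks at PSEUDOSRKA. EXT11 (AT5G49080), an extensin gene of the cell wall, had H4ac at 12.13 and 10.67 in axe1-5 +MeJA and 3.86 and 6.34 in axe1-5, with none listed in WT. RLP18 (AT2G15040), a receptor-like protein, had 5.55 and 7.4 in axe1-5 +MeJA and 4.6 and 5.85 in axe1-5, with none listed in WT. In EXT11 and RLP18, 62.5% and 84.4% of windows were unique. PERK2 (AT3G24400), a proline-rich receptor-like kinase, had H4ac at 12.6 and 11.47 in axe1-5 +MeJA, 5.07 and 7.8 in axe1-5, none listed and 6.37 in WT +MeJA, and 3.49 and none listed in WT (limma adjusted p = 0.279). Its H3K27me3 was listed in all 7 libraries, between 8.51 and 25.03.

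Gains in every comparison were also looked for, and 10 arm loci gained H4ac in all 3 comparisons against the same WT libraries (3.25%, against 1.88% of all loci with H4ac). AT1G52942, annotated as a pseudogene of SRS4, a gene of the SHI-related family of transcription factors, had 11.27 and 12.91 in axe1-5 +MeJA, 6.44 and 11.09 in axe1-5 and 6.14 and 7.67 in WT +MeJA, with none listed in WT. AT2G38520 had 11.5 and 13.99 in axe1-5 +MeJA, 8.21 and 10.63 in axe1-5 and 6.39 and 7.76 in WT +MeJA, with none listed in WT. At AT2G38520 both axe1-5 conditions were above WT +MeJA, and at AT1G52942 untreated axe1-5 and WT +MeJA overlapped. The limma adjusted p for the genotype was 0.00255 for AT1G52942 and 0.00143 for AT2G38520. The arm locus with the highest mean among those that gained H4ac in WT +MeJA was AT5G20880. It had 11.99 and 14.19 in axe1-5 +MeJA, none listed and 17.75 in axe1-5, 15.17 and 17.64 in WT +MeJA, and none listed in WT. AT3G61020 had 17.28 and 15.3 in WT +MeJA and 7.52 and 7.4 in WT, and it did not gain H4ac in the other 2 comparisons.

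The 4 arm loci that lost H4ac in axe1-5 were AT5G47445, AT2G38980, AT5G40920 and AT1G60150. AT2G38980 had no summit in the 4 axe1-5 libraries, against 11.04 and 12.73 in WT +MeJA and 6.28 and 6.24 in WT. AT5G47445 had none in axe1-5, against 7.87 and 11.54 in WT +MeJA and 7.35 and 6.6 in WT, and AT5G40920 had none, against 7.02 and 5.89 in WT +MeJA and 4.59 and 5.3 in WT. These 3 loci, all over 90% unique, were the ones with H4ac in every WT library and in no axe1-5 library. AT1G60150 was weak, at 2.56 and 3.66 in WT and not listed elsewhere.

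Gains and losses of H3K27me3 were counted by the same rule. In axe1-5 +MeJA, 39 of the 304 arm loci with this mark gained it (12.8%, against 11.8% of all 6901 loci with H3K27me3). In axe1-5, 6 gained it (1.97%, against 2.99% of all loci) and 6 lost it (1.97%, against 2% of all loci). In WT +MeJA, where 1 library was available, 21 gained it (6.91%, against 6.67% of all loci), and 7 of these had no summit in either WT library. The shares of arm loci were thus near those of all loci in each comparison. The replicate differences of this mark, in tags and modelled fragments, stand beside these counts and their part was not tested.

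Gains of H3K27me3 in both axe1-5 conditions were seen at 3 arm loci. This overlap was not counted over all loci, so the 3 are given as examples only. AT5G37381, which carries terminal repeats and had H4ac in 1 library of axe1-5 +MeJA (7.93), had 9.32 and 8.86 in axe1-5 +MeJA and 6.97 and 21.24 in axe1-5, with none listed in WT +MeJA or WT. AT2G02260 had 9.72 and 7.69 in axe1-5 +MeJA and 9.69 and 14.16 in axe1-5, with none listed in WT +MeJA or WT. H4ac was listed at AT2G02260 in axe1-5 +MeJA only (mean 2.31, with 0 where not listed). AT1G30150 had 6.89 and 10.38 in axe1-5 +MeJA, 10.53 and 12.39 in axe1-5 and 29.2 in WT +MeJA, with none listed in WT, so that MeJA-treated WT also had the mark. Among losses, AT5G05025, annotated as a pollen Ole e I allergen and extensin pseudogene, had H3K27me3 in WT only, at 9.19 and 13.55. The largest fold enrichment of H3K27me3, 54.22 at AT2G26630 in WT +MeJA, rested on a peak of 13 tags and no other library listed that locus.

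Stable H3K27me3 was found at 9 arm loci in all 7 libraries. AT4G29276, a pseudogene of an acid phosphatase gene, had 10.94 and 9.44 in axe1-5 +MeJA, 9.38 and 17.7 in axe1-5, 32.19 in WT +MeJA, and 9.19 and 13.77 in WT. The value of WT +MeJA was the highest of the 7 libraries at AT4G29276, and the median fold enrichment of that whole list, 20.9, was also the highest of the 7. AOP2 (AT4G03060), a glucosinolate gene that is truncated in Col-0 and was picked here after its values were seen, had 9.72 and 8.63 in axe1-5 +MeJA, 10.24 and 19.47 in axe1-5, none listed in WT +MeJA, and 10.51 and 14.59 in WT, and no H4ac summit.

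Both marks in all replicates of the same condition were found at 27 arm loci in axe1-5 +MeJA (5.09% of the 530, against 3.85% of all 23932 loci with a summit), 12 in axe1-5 (2.26%, against 1.37%), 6 in WT +MeJA (1.13%, against 0.664%) and 3 in WT (0.566%, against 0.393%), together 34 loci. The order of the conditions was the same over all loci as over the arm loci. WT +MeJA has a single H3K27me3 library, which makes the condition easier to meet. The neighbours AT3G21020, AT3G21030 and AT3G21040 on chromosome 3, of which AT3G21030 was picked after its values were seen, had both marks in partly different libraries. AT3G21020 (7368267 to 7369526) had H4ac at 5.61 and 10.13 in axe1-5 +MeJA and 5.25 and 8.87 in axe1-5, with none listed in WT, and AT3G21030 had 6.01 and 8.8 in axe1-5 +MeJA and 5.06 and 7.51 in axe1-5, with none listed in WT. AT3G21040 had H4ac in axe1-5 +MeJA alone, at 6.41 and 8.44. H3K27me3 was listed in both WT libraries at AT3G21020 (9.19 and 14.59) and AT3G21040 (13.13 and 16.68). Neither library of untreated axe1-5 listed it at AT3G21040, which counts among the losses. It was listed there in axe1-5 +MeJA (mean 5.32, with 0 where not listed) and in WT +MeJA (26.6). AT3G21030 had H3K27me3 in every condition. At AT3G21020 it was found in 1 of 2 libraries of each axe1-5 condition. Reads in whole seedlings do not show whether both marks were on the same chromosomes.

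Genes of the silencing machinery were checked from a list of 31, which holds HDA6 and its partners, DNA methyltransferases, the small RNA pathway and Polycomb subunits. H4ac was found at 27 of them and in all 8 libraries at 12, and H3K27me3 at 1 (NRPE1, the large subunit of RNA polymerase V). In limma, which averages mock and MeJA, LDL1 and MSI1 passed the test with a lower average in axe1-5, as did 3.11% of all loci tested. LDL1, a histone demethylase, had no summit in axe1-5 +MeJA, 6.02 and 8.02 in axe1-5, 9.51 and 9.91 in WT +MeJA, and 4.03 and 6.64 in WT, so that it was lower in axe1-5 under MeJA only. MSI1, a Polycomb subunit, was listed in WT +MeJA alone, at 9.27 and 11.43. By the rule, 2 of the 27 genes with H4ac gained it in axe1-5, a share close to the 7.36% of all loci. These were NRPD1 and DCL3, both of the small RNA pathway. In WT +MeJA 3 gained it, NRPD1 again among them, where 8.81% of all loci did. In axe1-5 +MeJA 2 gained it, DCL3 and SUVH4, where 16.1% of all loci did. Loss of H4ac in axe1-5 was seen at 1 of the 27 genes, where 1.3% of all loci lost it. This was MET1, the maintenance DNA methyltransferase, with none listed in either axe1-5 library, against 4.49 and 5.96 in WT. At MET1, axe1-5 +MeJA had 4.69 and 5.84 and WT +MeJA none. HDA6 had 9.08 and 10.04 in axe1-5 +MeJA, 9.13 and 11 in axe1-5, 10.19 and 14.53 in WT +MeJA, and 5.87 and 8.36 in WT (limma adjusted p = 0.93).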

How the data were processed

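ChIP-Seq of H4ac and H3K27me3 in whole seedlings was used as 15 peak lists. Per the labels and headers, the authors trimmed reads with Trimmomatic 0.36.5, aligned them with Bowtie at default parameters to TAIR10 and called peaks in each library against an input with MACS 1.4.2 (p cutoff 1e-05, effective genome size 1.35e+08). The Bowtie version is not given in the sources used here. The deposited tag counts, scores (negative log10 of p multiplied by 10), fold enrichments (a ratio to input) and FDR (percent) were made by the authors and not normalised further. The count of tags and the FDR entered no test.

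Loci came from TAIR10.1, whose nuclear chromosomes contain all nuclear peaks, and 2 organelle peaks were left out. TE genes and pseudogenes could not be separated by feature type. The members and lists were chosen with earlier results of these data known. Named loci are, per mark and condition, the 5 gained loci with the highest mean, the 5 lost in axe1-5 and the 5 highest in every library, then the 5 highest that gained H4ac in all 3 conditions, and up to 10 each with both marks or with a gene symbol and a gain or loss. Other loci were picked after their values were seen. Shares were compared by exact permutation of libraries. Loci were tested with limma 3.58.1 (R 4.3.3, pseudocount 1, Benjamini-Hochberg over 19351 loci), which was tested on simulated data. Terminal repeats were found with blastn 2.17.0, and copies by counting 50-base windows on both strands with Python 3.11.15.

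The replicates are described as independent biological replicates. Libraries were matched by replicate number in the gain rule. Alternatives were a score of at least 100, overlap by 1 bp, equal numbers of peaks, loci without a summit in another gene, loci at least 90% unique, 3-fold, division by the list median, unmatched replicates, presence alone, pseudocount 0.5, loci in at least 2 libraries, the replicate block and 1 replicate only. Omission of the shallowest libraries and the comparisons of axe1-5 +MeJA with WT +MeJA and with axe1-5 were added after seeing the data.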

Additional observations from a re-analysis of the deposited data

How the results depend on the processing

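The higher H4ac share in axe1-5 kept its direction under all alternatives, but with libraries permuted within replicate number (replicate block) or within treatment the p for the difference of 0.621 percentage points was 0.0556, without the untreated WT libraries it was 0.0667 for 0.542, and with 1 replicate the difference was 0.603 to 0.638. The difference in the H3K27me3 share between MeJA and mock turned to -0.0386 without loci whose summit lies in another gene and -0.0662 with mostly unique loci, and was -0.682 to 1.18 with 1 replicate. The difference in the arm share changed from -0.924 to 0.273 with overlap by 1 bp, 0.247 with equal numbers of peaks and 1.06 without loci sharing a summit, and was -3.43 with mostly unique loci (exact permutation p = 0.0571).

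H4ac gained in WT +MeJA numbered 15 with a score of at least 100 and 5 with equal numbers of peaks. H4ac lost in axe1-5 numbered 2 with a score of at least 100 and 1 with overlap. H3K27me3 gained in WT +MeJA numbered 4 with a score of at least 100, 11 with 3-fold, 11 after division by the list median and 7 by presence alone. H3K27me3 gained in axe1-5 numbered 3 with a score of at least 100 and 28 with overlap, and lost numbered 1 with overlap and 3 with equal numbers of peaks. H3K27me3 gained in axe1-5 +MeJA numbered 77 with overlap and 9 with equal numbers of peaks. Loci lower by limma numbered 4 with overlap and 4 among mostly unique loci.

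With 1 replicate only, the counts were 61 and 61 for H4ac gained in WT +MeJA, 120 to 134 in axe1-5 and 163 to 179 in axe1-5 +MeJA, and 7 to 15 for H4ac lost. For H3K27me3 they were 58 to 97 gained in axe1-5, 35 to 59 lost and 71 to 162 gained in axe1-5 +MeJA. A rule that must hold in fewer libraries passes more loci. Limma on 1 replicate, additive in genotype and treatment with the spread pooled over the lone libraries, called 0 loci higher and 0 lower (66 to 76 higher and 5 to 8 lower at an unadjusted p under 0.05). With replicate number as a factor (replicate block) limma called 74 higher and 8 lower, as without it. The differences between replicates correlated by -0.05 to 0.10 between H4ac conditions and -0.33 to -0.06 between H3K27me3 conditions. A correlation over loci does not show a shift of a whole list. Replicate 2 had the higher median H4ac fold enrichment in every condition. The values were 10.7 against 8.32 in axe1-5 +MeJA, 9.38 against 6.12 in axe1-5, 9.98 against 9.2 in WT +MeJA and 6.83 against 5.9 in WT. Whether replicate number marks a batch was not tested. Of the 164 alternatives tried, 121 kept their direction and side or stayed within 1.5 times. The cause of the changes above was not tested unless stated. Tags were fewest for H3K27me3, with 577986 tags kept in WT +MeJA.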
